A study of Mus musculus with 4 samples.

Results

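The miR-19 and miR-25/miR-92 families are 2 groups of microRNAs (miRNAs) that share polycistronic precursors but differ in their seed, the stretch at bases 2 to 8 that pairs with target mRNAs. The members were taken by name from the array: mmu-miR-19a and mmu-miR-19b for the miR-19 family, and mmu-miR-25, mmu-miR-32, mmu-miR-92a, mmu-miR-92b and mmu-miR-363 for the miR-25/miR-92 family, 7 of the 567 mouse miRNAs measured. Total RNA of Sertoli cells, the somatic cells that nurse germ cells in the testis, had been hybridised to 4 single-channel Agilent miRNA arrays to find miRNAs that respond to androgen. Sham mice had an empty implant and saline. Flut+Acy mice had a flutamide implant (an androgen receptor antagonist) and injected acyline (an antagonist of gonadotropin-releasing hormone), and Flut+Acy+T mice had both drugs plus testosterone. All were male B6129 mice aged 5 to 7 weeks, and each RNA was a pool from 5 to 7 of them. The sample titles name only flutamide for the Flut+Acy arrays and only testosterone for the Flut+Acy+T array, so the acyline comes from the study's methods.

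Sham and Flut+Acy+T had 1 array each and Flut+Acy had 2. Nothing in the labels says that the Flut+Acy arrays came from separate pools, so all p-values measure only the spread of that pair, which may be technical. For the detected members that spread was small in the total signals. Those of the pair were apart by 1.18 times their combined software error for miR-19a and by less than that error for miR-19b, miR-25 and miR-92a. In the authors' own normalized table it was not small for miR-19a, at 155 and 75.1 units on the pair. Of 567 mouse miRNAs, the scanner software called 193 detected for Sham, 275 and 270 for the Flut+Acy pair and 102 for Flut+Acy+T. The Flut+Acy+T array stood apart: the SD of its 672 negative control spots was 1326 units, against 2.72 to 7.45 on the others, and it carried 535 nonuniform spots, against at most 4. The gonadal miRNA miR-202-3p, a check of the labelled cell type, was called present on every array except Flut+Acy+T, whereas miR-202-5p, from the other strand of the same hairpin, was called present on the Flut+Acy arrays alone. The comparison of Flut+Acy with Sham is therefore also given without the Flut+Acy+T array.

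Primary transcripts such as that of the miR-17 polycistron are cut into several hairpins, each of which yields a mature miRNA, so members of different seed families can be made from 1 transcript and then differ in abundance through processing or decay. The miR-17 polycistron is known as an oncogenic cluster that favours proliferation and survival, and the pro-apoptotic gene Bim (Bcl2l11) is a known target of the miR-25/miR-92 seed. This cluster and its relatives are also known to be expressed in the male germ line.

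The mature sequences show why the families are treated as 2 groups. Capitals mark the seed, and the sequences and positions are those of RefSeq (GRCm38.p6), in which all 7 members were found.
miR-19a, chr14:115044048-115044070, plus strand: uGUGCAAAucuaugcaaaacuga
miR-19b, chr14:115044358-115044380, plus strand, and chrX:52741991-52742013, minus strand: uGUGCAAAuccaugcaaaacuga
miR-25, chr5:138165332-138165353, minus strand: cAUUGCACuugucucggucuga
miR-92a, chr14:115044476-115044496, plus strand, and chrX:52741854-52741874, minus strand: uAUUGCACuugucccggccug
miR-92b, chr3:89227126-89227147, minus strand: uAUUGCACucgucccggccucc
miR-363, chrX:52741697-52741718, minus strand: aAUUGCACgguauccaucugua
miR-32, chr4:56895272-56895293, minus strand: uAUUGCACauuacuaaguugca

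The miR-19 seed, GUGCAAA, stood in 2 of the 1679 mature sequences of the RefSeq table, which were miR-19a and miR-19b themselves. The miR-25/miR-92 seed, AUUGCAC, stood in 6, the 5 members and miR-367-3p, and miR-367 was not detected on any array. miR-19a and miR-19b match at 22 of 23 bases and differ by U11C (the base of miR-19a, the position from the 5′ end, the base of miR-19b), so their seeds are identical and only the middle of the miRNA differs. Within the other family, miR-25 and miR-92a match at 18 of 21 compared bases and miR-92a and miR-92b at 19 of 21. Cross-hybridisation between such close relatives was not tested.

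The members lie in 3 polycistrons and at 2 separate loci. On chromosome 14, miR-19a, miR-19b and miR-92a share a run of 6 hairpins over 836 bases with miR-17, miR-18a and miR-20a, and the hairpin of miR-92a overlaps the annotated host gene Mir17hg. On the X chromosome, second copies of miR-19b and miR-92a lie with miR-363 in a run of 6 hairpins over 875 bases that also holds miR-106a, miR-18b and miR-20b. miR-25 is the last of 3 hairpins over 498 bases on chromosome 5, after miR-106b and miR-93, within Mcm7, a gene for a DNA replication helicase subunit. miR-32 lies within Tmem245 on chromosome 4 and miR-92b on chromosome 3. Since both copies of miR-19b give the same mature sequence, as do both copies of miR-92a, the array cannot tell the chromosome 14 source from the X-linked one.

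Androgen blockade came with higher signals for the detected members of both families. Of the 7 members, 4 were detected on Sham and on each Flut+Acy array, namely miR-19a, miR-19b, miR-25 and miR-92a. All 4 were higher on both Flut+Acy arrays, by 3.22-fold for miR-19a, 2.89-fold for miR-19b, 1.77-fold for miR-25 and 1.64-fold for miR-92a after quantile normalization. limma called 4 of these 4 higher (Benjamini-Hochberg adjusted p under 0.05 over 298 miRNAs), whereas it called 25.5% of all tested miRNAs higher and 54.0% in either direction. The calls rest on the small spread of the Flut+Acy pair: 1 of the 4 was called in the deposited table or with no filter on detection, and 0 by limma without moderation of the variances (2 at an unadjusted p under 0.05). The median log2 difference of the 4 members was 1.18, that of all 298 miRNAs was -0.15, and that of the 76 miRNAs detected on every array was -0.30. The study named all of these 4, in its heat map or its list of changed miRNAs, from the same arrays, so their direction is not independent evidence. It also reported real-time RT-PCR of highly altered miRNAs in Sertoli cells of these treatments and of LHβ-knockout mice. Of these 4 members, its primer list names miR-25. The RT-PCR measurements are not part of the arrays and were not examined here.

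mmu-miR-19a, made from a single locus, gave a total signal of 19.9 ± 2.95 units on Sham (the error is that of the scanner software on 1 array, here and below). It gave 376 ± 28.4 and 427 ± 31.9 units on the Flut+Acy arrays and 29.4 ± 123 units on Flut+Acy+T, where it was not detected. Both Flut+Acy arrays were thus far above Sham, and the Flut+Acy+T value cannot be told from 0. On the normalized log2 scale miR-19a had a level of 6.82 on Sham and 8.51 on each Flut+Acy array, a difference of 1.69 (limma adjusted p = 0.00436), the 16th highest of 189 miRNAs detected on those 3 arrays. It held the same rank on both Flut+Acy arrays, so quantile normalization gave it identical values there, and its standard error of 0.0069 comes from the variance prior rather than from replicates. In the authors' own normalized table the pair differed, at 155 and 75.1 units against 14.2 on Sham.

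mmu-miR-19b is encoded at 2 loci and was detected on every array. Sham gave a total signal of 147 ± 13.4 units, against 1728.5 ± 156 and 1719.6 ± 151 for the Flut+Acy pair and 778 ± 143.1 with testosterone. Flut+Acy was thus highest and Sham lowest before normalization. Its normalized log2 levels were 9.14 on Sham, 10.74 and 10.60 for the Flut+Acy pair and 9.04 with testosterone, so after normalization Sham and Flut+Acy+T were close together below Flut+Acy. The difference between Flut+Acy and Sham was 1.53 with a standard error of 0.10 (limma adjusted p = 0.0341), the 20th highest of 189.

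mmu-miR-25, the member made from the Mcm7 intron cluster, gave 36.6 ± 4.18 units on Sham, 317 ± 29.0 and 357 ± 32.04 for the Flut+Acy pair and 168 ± 125 with testosterone, where it was not detected. Its normalized log2 level was 7.54 on Sham and 8.39 and 8.33 on Flut+Acy, a difference of 0.82 with a standard error of 0.04 (limma adjusted p = 0.0256), the 30th highest of 189.

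mmu-miR-92a, the last hairpin of the chromosome 14 polycistron, gave 116 ± 10.9 units on Sham, 845 ± 75.1 and 942 ± 82.5 for the Flut+Acy pair and 711 ± 138 with testosterone. Its normalized log2 level was 8.82 on Sham, 9.53 and 9.55 for the Flut+Acy pair and 8.91 with testosterone. The difference between Flut+Acy and Sham was 0.72 with a standard error of 0.02 (limma adjusted p = 0.0165), the 34th highest of 189. miR-92a therefore had the smallest normalized difference of the 4, although both Flut+Acy arrays were again above Sham.

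**Figure D1:**
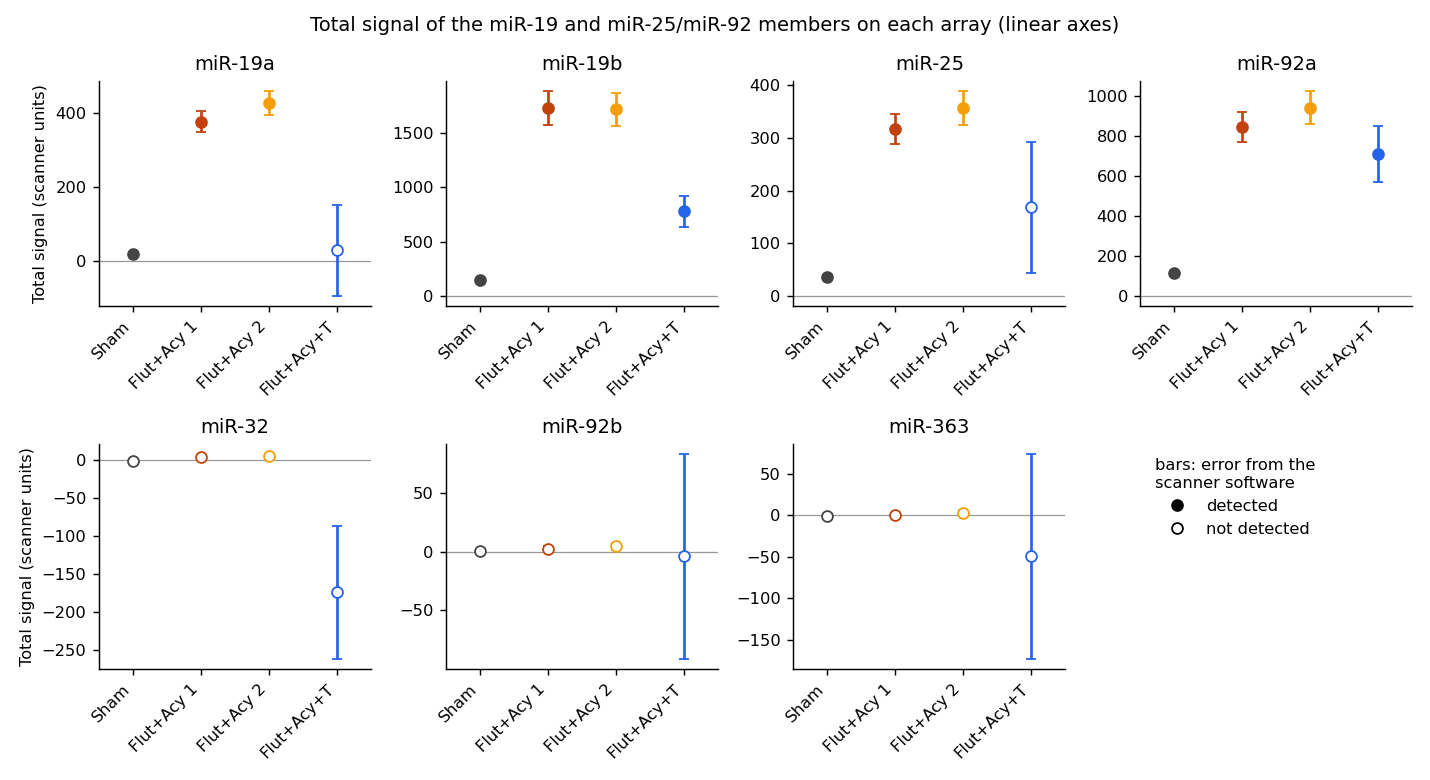
Total signal in scanner units, before normalization between arrays, of each member (panels) on each array (x axis), with the error given by the scanner software as bars, filled symbols for detected and open symbols for not detected. miR-19a, miR-19b, miR-25 and miR-92a are highest on the Flut+Acy arrays, whereas miR-32, miR-92b and miR-363 are open on all 4 arrays.

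The 3 remaining members gave no measurable signal. miR-32 gave -1.57 units for Sham, 3.55 and 5.17 for the Flut+Acy pair and -174 ± 87.2 with testosterone. miR-92b gave 0.9996, 2.71, 4.61 and -3.84 ± 87.2 units in the same order, and miR-363 gave -0.741, -0.176, 2.64 and -49.4 ± 123. None of the 3 was detected on any array, and none of their spots was well above background, so they have no fold change and did not enter the test. The probes differ in reach: those of miR-92b spanned 10 to 13 bases, against 16 to 21 for the 4 detected members, while those of miR-32 spanned 17 to 20 and those of miR-363 18 to 19. Whether the short span touches the detection of miR-92b was not tested.

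The order of the rises was the same before normalization, although their size was not. At that stage the Flut+Acy arrays were brighter throughout, with median ratios to Sham of 2.68 and 3.15 over the 189 miRNAs. The unnormalized ratios were 18.8 and 21.4 for miR-19a, 11.8 and 11.7 for miR-19b, 8.67 and 9.75 for miR-25 and 7.31 and 8.15 for miR-92a, all above those medians. Only 14 and 13 of the 189 miRNAs had a higher ratio than miR-19a, and 35 and 36 a higher one than miR-92a. Across the alternative settings the log2 difference between Flut+Acy and Sham stayed above 0 for all 4, from 1.68 to 4.33 for miR-19a, 1.35 to 3.55 for miR-19b, 0.79 to 3.20 for miR-25 and 0.67 to 2.95 for miR-92a. Their order changed with normexp background correction, where miR-25 (1.48) stood above miR-19b (1.35). Without the Flut+Acy+T array, the differences were 2.20 for miR-19a, 1.53 for miR-19b, 1.06 for miR-25 and 0.83 for miR-92a.

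Each detected member was read by 2 probes, but on Sham the shorter probe of miR-19a (0 of 9 spots) and that of miR-25 (0 of 10 spots) were not well above background, so no ratio is given for them. The longer miR-19a probe gave unnormalized ratios of Flut+Acy to Sham of 15.3 and 18.6. For miR-19b they were 10.8 and 13.8 with the shorter probe and 11.8 and 11.3 with the longer. For miR-25 the longer probe gave 8.44 and 8.84. For miR-92a they were 9.14 and 10.1, and 8.08 and 8.45. Among these 6 probes the lowest ratio for miR-19 (10.8) was above the highest for miR-25 or miR-92a (10.1).

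**Figure D2:**
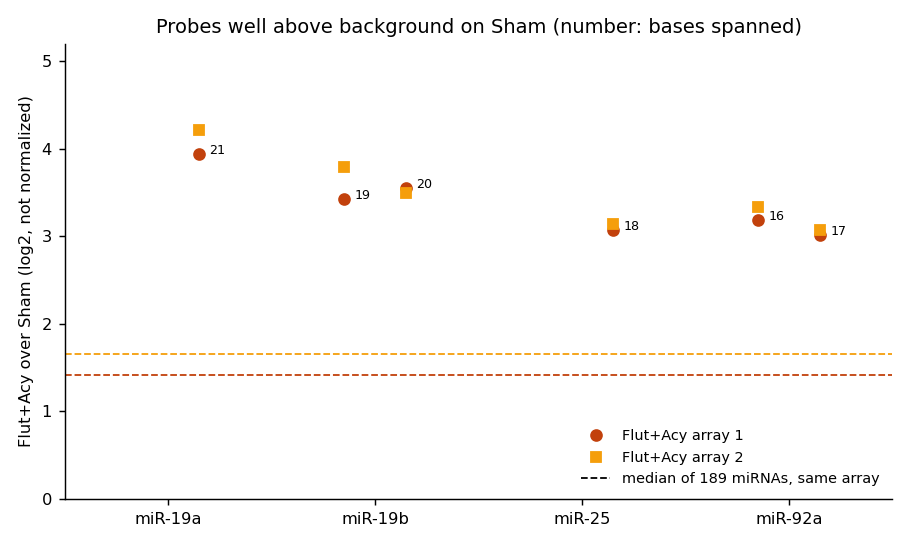
Unnormalized log2 ratio of Flut+Acy to Sham for the 6 probes of the detected members that were well above background on Sham, with the bases that the probe spans printed beside it and the median ratio of 189 miRNAs on each array as a dashed line. All 6 lie above both medians on both arrays, and the probe of miR-19a lies highest.

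The mean normalized log2 difference was 1.61 for miR-19a and miR-19b and 0.77 for miR-25 and miR-92a, a gap of 0.84 (1.79-fold), which was 0.87 with the first Flut+Acy array and 0.81 with the second. The SD of the gap over the Flut+Acy pair was 0.04, which leaves out any spread of Sham, and no test of the gap was run. It kept its sign in the alternatives run but was 0.44 with normexp background correction, and it rests on 2 detected members in each family. Ratios of total signals within an array do not depend on scaling between arrays, and they moved in the same way. The log2 ratio of miR-19a to miR-92a was higher than on Sham by 1.37 ± 0.30 and 1.39 ± 0.30 on the Flut+Acy arrays, and that of miR-19a to miR-25 by 1.12 and 1.13 (± 0.32 each), with the software errors combined as if independent. The log2 ratio of miR-19b to miR-92a was higher by 0.69 ± 0.26 and 0.52 ± 0.26.

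The next pairs, with miR-25, moved less. The log2 ratio of miR-19b to miR-25 was above that on Sham by 0.44 and 0.26 (± 0.28 each) and that of miR-25 to miR-92a by 0.25 and 0.26 (± 0.28 each), both of which lie within 2 times the error. Within the miR-19 family, the ratio of miR-19a to miR-19b was higher by 0.68 and 0.87 (± 0.30 each), while their normalized differences were 1.69 and 1.53. That move within 1 family was about as large as that of miR-19b to miR-92a between the families (0.69 and 0.52). These errors are those of single arrays and hold no spread between pools. The GC content of the detected members runs opposite to the size of the rise. It was 34.8% for miR-19a, 39.1% for miR-19b and 57.1% for miR-92a, with miR-25 between the last 2. The part of base composition in these differences was not tested.

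**Figure D3:**
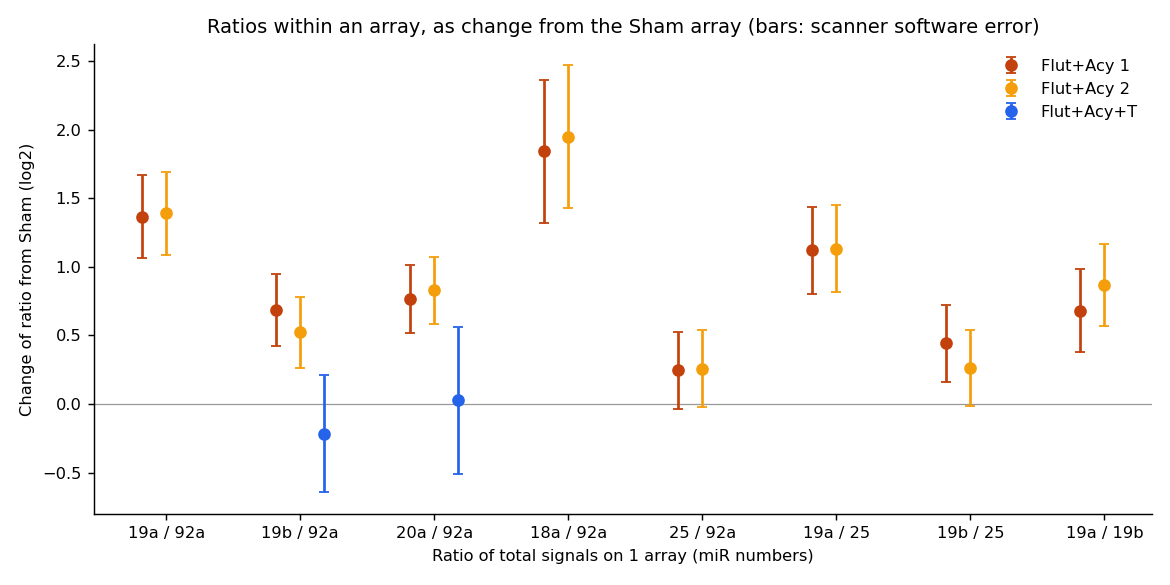
Change from the Sham array in the log2 ratio of 2 total signals on the same array, for 8 pairs of miRNAs (x axis) on the Flut+Acy and Flut+Acy+T arrays, with combined software errors as bars. Ratios to miR-92a lie above 0 on Flut+Acy for miR-19a, miR-19b, miR-20a and miR-18a, and those of miR-19b and miR-20a lie within their error of 0 on Flut+Acy+T, where the other pairs were not both detected.

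The polycistron partners carry other seeds, chiefly that of the miR-17 family, which is known to repress cell cycle inhibitors. Of the 8 partners, 5 were detected on Sham and on both Flut+Acy arrays. Each of these 5 was called higher on Flut+Acy by limma, against 25.5% of all 298 tested miRNAs. miR-18a differed by 1.95 (limma adjusted p = 0.00436), with total signals of 7.78 ± 2.55 units on Sham and 204 and 245 on Flut+Acy. None of its spots was well above background on Sham, where the software called it detected at 3.05 times its error, so the size of its difference is uncertain. Like miR-19a it took identical normalized values on the Flut+Acy pair. miR-20a differed by 1.32 (limma adjusted p = 0.0402) and its X-linked relative miR-20b by 1.21 (limma adjusted p = 0.0415). miR-17 and miR-106a entered the fit only through Flut+Acy. They were not detected on Sham, and their Flut+Acy signals were 1.53-fold and 1.34-fold the lowest detected normalized signal of Sham. Such ratios hold for this normalization only. They are not lower bounds, since a miRNA that is not detected can lie above the lowest detected signal. On Sham miR-429 did so, at 53.8 against 23.6 units. miR-18b was not detected on any array.

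Read along the chromosome 14 polycistron, the differences were 1.95 for miR-18a, 1.69 for miR-19a, 1.32 for miR-20a, 1.53 for miR-19b and 0.72 for miR-92a. miR-92a had the smallest difference of these 5. Within the arrays, the log2 ratio of miR-20a to miR-92a was higher than on Sham by 0.76 and 0.83 (± 0.25 each), and that of miR-18a to miR-92a by 1.84 and 1.95 (± 0.52 each), whereas miR-19b against miR-20a moved by -0.08 and -0.31 (± 0.24 each). On chromosome 5, miR-25 (0.82) lay near miR-93, which differed by 0.95 (limma adjusted p = 0.0250), and above miR-106b, which differed by 0.22 (limma adjusted p = 0.0349). The log2 ratio of miR-106b to miR-25 was lower than on Sham by -0.70 and -0.66 (± 0.27 each), but with normexp background correction their differences from Sham were alike, at 1.47 for miR-106b and 1.48 for miR-25. Of the 8 entries on the array for the opposite strands of the members' and partners' hairpins, 6 were detected nowhere, those of miR-19a and miR-92a included. miR-17* was detected on the Flut+Acy arrays at 37.6 and 42.5 units, and miR-18a* only on Flut+Acy+T at 525 ± 92.9 units, an array whose negative control spots varied by more than that.

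**Figure D4:**
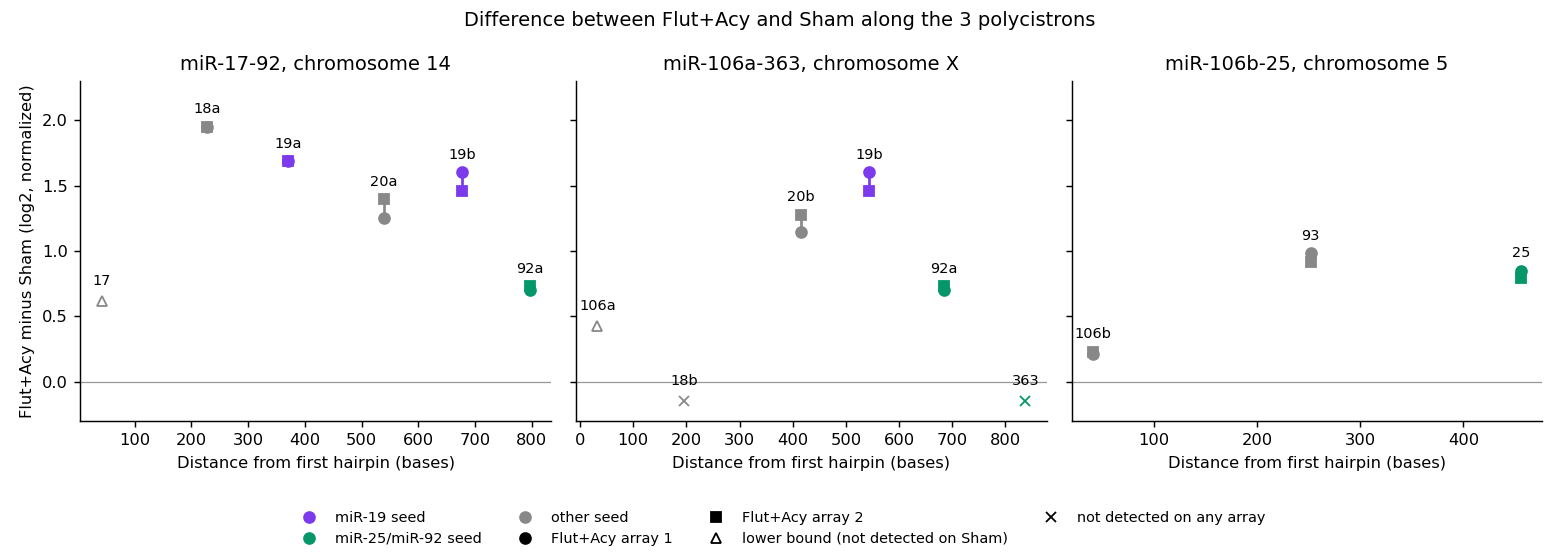
Normalized log2 difference between each Flut+Acy array and Sham (y axis) against distance in bases from the first hairpin (x axis) for the 3 polycistrons, with the miR-19 and miR-25/miR-92 seeds in colour and miRNAs not detected on any array as crosses. Open triangles, labelled lower bound, are miRNAs not detected on Sham. They set Flut+Acy against the lowest detected signal of Sham, which is not a strict bound. miR-92a at 0.72 lies below miR-19a at 1.69 and miR-19b at 1.53, and miR-19b and miR-92a are drawn in both polycistrons that encode them.

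Testosterone replacement came with lower normalized signals than Flut+Acy for the same 4 miRNAs, but the array was noisy and most miRNAs tested were lower there. limma called 53.7% of all 298 miRNAs lower, and it called miR-19b and miR-92a, the members detected on Flut+Acy+T, lower as well. miR-19b fell by 1.64 on the log2 scale with a standard error of 0.10 (limma adjusted p = 0.0206), and stood 79th of 83 miRNAs detected on Flut+Acy and Flut+Acy+T when ordered from the largest rise to the largest fall. miR-92a fell by 0.63 with a standard error of 0.02 (limma adjusted p = 0.0103), 68th of 83. miR-19a and miR-25 were not detected on Flut+Acy+T. With quantile normalization their Flut+Acy signals were 3.53-fold and 3.18-fold the lowest detected signal of Flut+Acy+T. These are not lower bounds either, since miR-449a was not detected on that array at 170 units, above its lowest detected signal of 104. The ratios also depend on the processing. The log2 difference of miR-19a was -1.57 with normexp. That of miR-25 was -0.999 without normalization and -1.19 with normexp. Each was smaller in size than the log2 of its ratio.

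Without normalization the ratios of Flut+Acy+T to the 2 Flut+Acy arrays were 0.450 and 0.452 for miR-19b and 0.841 and 0.754 for miR-92a, below the medians of 1.56 and 1.34 over the 76 miRNAs detected everywhere. miR-19b fell by more than miR-92a, with a gap between their log2 differences of -1.005 (-1.09 and -0.92 with either Flut+Acy array), which was -0.78 to -0.86 with another scaling, spot summary or background correction of the scanner files. In the authors' own normalized table this gap was -0.029: their miR-19b values were 317 units on Sham, 841 and 1077 for the Flut+Acy pair and 244 with testosterone, and their miR-92a values were 33.2, 75.6, 80.6 and 20.4 units. Both miRNAs were highest on Flut+Acy in that table too, but by like ratios to Flut+Acy+T. Of the partners, miR-20a was the single one detected on Flut+Acy+T, and it fell by 1.83. Its signal there was 3.42 times its error, with 1 spot well above background, so the size of its fall is uncertain. On that array the shorter probes of miR-19b (0 of 10 spots) and miR-92a (0 of 9 spots) were not well above background either.

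Against Sham, the Flut+Acy+T array gave log2 differences of -0.10 for miR-19b (standard error 0.12, limma adjusted p = 0.584) and 0.09 for miR-92a (standard error 0.02, limma adjusted p = 0.132). Neither passed the test, which does not show that the levels were equal, and the sign of both turned with the processing: miR-19b was 5.30-fold above Sham before normalization, and miR-92a was at -1.19 with scaling to the 75th percentile of all mouse miRNAs. Before normalization miR-92a was 6.15-fold above Sham and the median of 76 miRNAs 3.77-fold. The within-array log2 ratio of miR-19b to miR-92a on Flut+Acy+T was apart from Sham by -0.22 ± 0.43 and that of miR-20a to miR-92a by 0.03 ± 0.54, both inside their error. limma called 2 of 4 members lower than Sham, against 48.3% of all miRNAs, and these were miR-19a and miR-25, which Flut+Acy+T did not detect. Their Sham signals were 1.09-fold (miR-19a) and 1.80-fold (miR-25) the lowest detected signal of Flut+Acy+T, which again is not a lower bound. The direction of both differences turned without normalization.

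The summed signal of a set of germ cell miRNAs moved in the same direction as the members. The summed normalized signal of 5 miRNAs of spermatocytes and spermatids (miR-34b-3p, miR-34b-5p, miR-34c, miR-449a and miR-449b) was 1659 units for Sham, 7062 and 5913 for the Flut+Acy pair and 2480 with testosterone. Of the 5, 3 were detected on Sham, 4 on each Flut+Acy array and 3 on Flut+Acy+T, and miR-449b was detected nowhere. With testosterone miR-34b-3p went against the sum, at 66.7 and 68.3 units for the Flut+Acy pair and 323 on Flut+Acy+T. The part of this list in the members' values was not tested, and in pooled RNA fewer cells of a type cannot be told apart from less RNA per cell. The peritubular or smooth muscle list moved the other way, from 5142 units on Sham to 2717 and 2860 on Flut+Acy, as did the blood list, from 1038 to 516 and 502. The endothelial list was at 1647 units on Sham and at 2062 and 1938 on Flut+Acy, but its 2 miRNAs moved apart. miR-126-3p was at 1552, 2000 and 1879 units in that order, and miR-126-5p at 94.8, 61.6 and 59.2. The epithelial list was at 171, 362 and 366, and the part of these lists was not tested either.

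Among 74 other miRNAs detected on all 4 arrays, those nearest in shape to miR-19b, by the root mean square of centred log2 differences over the 4 arrays, were miR-15b (0.07), its polycistron partner miR-20a (0.17) and the germ cell miRNA miR-34c (0.20). For miR-92a they were miR-720 (0.13), miR-29b (0.14) and let-7g (0.17). With 4 arrays, of which 2 are of 1 group, this likeness describes these values alone.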

How the data were processed

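The authors deposited the Agilent Feature Extraction 9.5.3.1 output of every array (linear intensities, not normalized between arrays) and a table of intensities quantile-normalized in MATLAB, whose summary of spots is not given in the sources used here. The files are of a miRNA array (design on mm9, green channel), although the labels name cy5 and the methods a genome array. Detection flags and software errors were used as deposited.

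The total signals of the 567 mouse miRNAs underwent quantile normalization over 4 arrays and were floored at 5.47 units and converted to log2. All 3 groups entered 1 limma fit (version 3.58.1, R 4.3.3) of the 298 miRNAs that any array detected, and p-values were adjusted by Benjamini-Hochberg with a threshold of 0.05. The residual has 1 degree of freedom and the prior 0.46, with an SD of 0.01, and 55 miRNAs had identical values on both Flut+Acy arrays. The number of arrays limits the precision. The named miRNAs are the members, their polycistron partners, the opposite strands, the 3 nearest patterns of each family and the marker lists, and the members and lists were chosen with earlier results of these data known. Alternatives changed the scaling, spot summary, background correction, floor, filter, moderation and arrays. The arrays shared 1 slide and 1 scan.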

Additional observations from a re-analysis of the deposited data

How the results depend on the processing

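No paired analysis was possible because only the Flut+Acy arrays carry replicate numbers. All alternatives kept the direction of the 4 detected members in Flut+Acy against Sham. The calls were less stable, and their cause was not tested beyond the settings themselves. The share of all miRNAs called under each alternative is not given here, so these counts describe the members and partners alone. In Flut+Acy against Sham, 1 of the 4 tested members was called in the deposited table, 2 of 2 when only miRNAs detected on all 4 arrays were tested, 1 with no filter, and 0 in limma contrasts without moderation (2 at an unadjusted p under 0.05, 4 in the moderated fit). For the partners (7 called) these counts were 3, 1 of 1, 1 and 0 (4 unadjusted). Of these partners, miR-17 and miR-106a entered the fit only through Flut+Acy, the group where they were high, so their calls carry no weight. In Flut+Acy+T against Flut+Acy, 2 members (4 called) were called in the deposited table, 2 of 2 with the strict filter and 0 without moderation (3 unadjusted), and the partners (7) gave 1 of 1 with the strict filter, 4 with no filter and 0 without moderation (6 unadjusted). Only miR-19b, miR-92a and the partner miR-20a were detected on Flut+Acy+T. Calls of the others in any comparison with that array rest on signals not detected there. In Flut+Acy+T against Sham, the members called (2) were 4 with the 75th percentile of all mouse miRNAs, 1 with no filter, and by limma 0 in the deposited table (2 unadjusted), 0 with the strict filter (0 unadjusted) and 0 without moderation (1 unadjusted). The partners (4) were 0 with the strict filter (0 unadjusted) and 0 without moderation (2 unadjusted).

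The gap between the families in Flut+Acy against Sham (0.84) was 0.44 with normexp, 0.98 in the deposited table and 0.81 to 0.92 with 1 array left out, where leaving out Flut+Acy+T was chosen after seeing the data. In Flut+Acy+T against Flut+Acy the gap (-1.005) was -0.82 with each 75th percentile scaling and with no normalization, -0.78 with processed spot signals, -0.86 with normexp, -0.029 in the deposited table and -1.09 to -0.92 with 1 Flut+Acy array left out. In Flut+Acy+T against Sham the gap (-0.19) was -0.050 with spot signals and turned to 0.32 in the deposited table. Directions of Flut+Acy+T against Sham turned for all 4 members. With no normalization the log2 differences were 0.56 for miR-19a, 2.41 for miR-19b and 2.20 for miR-25. With normexp they were 0.11 for miR-19a, 0.29 for miR-25 and -0.28 for miR-92a. With the 75th percentile of miRNAs detected on all arrays they were 0.53 for miR-19b and 0.33 for miR-25. miR-92a was -1.19 with the 75th percentile of all miRNAs, -0.16 with spot signals and -0.70 in the deposited table. Removing normalization moved the median of the 76 miRNAs from -0.30 to 1.24 in Flut+Acy against Sham and from -0.03 to 1.92 in Flut+Acy+T against Sham. Which members count as detected was the same under all 3 detection rules tried. The lowest detected total signal, 238 units on Flut+Acy+T against at most 2.67 on the others, limits what that array can show.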
